A study of Mus musculus with 12 samples.

Results

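Interferon-stimulated genes are genes that cells switch on when interferons reach their receptors. The 29 genes described here were taken by name from a list of such genes, with no threshold on their measured values, and all 29 were among the 24421 genes counted. All 29 also passed the filter on low counts, which kept 13583 genes. They were measured by bulk RNA sequencing of islets, the hormone-secreting cell clusters of the pancreas, from mice fed a high-fat diet for 6 weeks. The 6 BKO libraries came from Il22ra1βKO mice, in which interleukin-22 receptor subunit alpha 1 was removed from β cells, and the 6 Cre libraries from Ins2Cre mice, the controls. Ins2 is an insulin gene, so its promoter directs the Cre recombinase to insulin-producing cells, and the diet is common to both genotypes. The sources used here do not state whether the BKO mice carry the same Cre transgene, nor the strain, sex or age. The comparison asks how the islet transcriptome differs when β cells lack this receptor subunit on this diet.

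Type I interferons (alpha and beta) signal through the receptor chains Ifnar1 and Ifnar2 and the kinases Jak1 and Tyk2, which activate transcription factors. A complex that holds Stat2 and Irf9 then binds the interferon-stimulated response element (ISRE). Interferon gamma acts mainly at the gamma-activated site (GAS). Interferon lambda uses a receptor that shares its Il10rb chain with the interleukin-22 receptor. In islets these genes are best known from autoimmune diabetes and from viral infection of β cells, where interferons raise antigen presentation and antiviral proteins.

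Because these genes are defined by a shared signal, the DNA before their start sites was searched for both elements. RefSeq promoter windows (GRCm38.p6), from 250 bases before to 50 bases after the gene start, were found for 22 of the 29 genes. Oas2, Mx1, Mx2, Ifi27, Parp14, Dhx58 and Usp18 had no window in the table. The ISRE core, GAAANN followed by GAAA on either strand, was present in 13 of the 22 genes (59.1%) and in 3.99% of all 27025 genes with a window. The GAS core TTCNNNGAA, which reads the same on both strands, was present in 6 of the 22 (27.3%) and in 9.55% of all genes. Bst2, Eif2ak2 and Oas1a held both cores, and in Bst2 the matches of both motifs overlap. A match is a run of letters and was not tested for binding. The sequences below are the 170 bases directly before the gene start, read toward the gene, and are shown because they carry the ISRE core. Capitals mark the ISRE core; TTTCNN followed by TTTC is the same core on the other strand.
Isg15: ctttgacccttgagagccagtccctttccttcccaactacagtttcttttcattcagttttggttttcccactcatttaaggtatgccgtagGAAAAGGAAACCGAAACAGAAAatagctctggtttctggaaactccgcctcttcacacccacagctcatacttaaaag
Ifit1: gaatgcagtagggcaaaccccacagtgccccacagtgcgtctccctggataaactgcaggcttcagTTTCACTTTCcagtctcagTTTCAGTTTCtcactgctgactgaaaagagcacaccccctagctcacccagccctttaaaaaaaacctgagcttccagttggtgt
Ifit3: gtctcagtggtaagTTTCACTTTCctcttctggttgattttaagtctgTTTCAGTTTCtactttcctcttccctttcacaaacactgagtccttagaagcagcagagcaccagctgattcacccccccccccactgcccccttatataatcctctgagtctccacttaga

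Isg15 (chr4:156200819-156200988, minus strand) held 3 overlapping cores in one run, while Ifit1 (chr19:34640719-34640888, plus strand) and Ifit3 (chr19:34583359-34583528, plus strand) each held 2 separate ones. Rsad2 (chr12:26456453-26456622, minus strand), Oas1a (chr5:120907526-120907695, minus strand), Gbp2 (chr3:142620493-142620662, plus strand) and Bst2 (chr8:71537473-71537642, minus strand) show the same core in other families.
Rsad2: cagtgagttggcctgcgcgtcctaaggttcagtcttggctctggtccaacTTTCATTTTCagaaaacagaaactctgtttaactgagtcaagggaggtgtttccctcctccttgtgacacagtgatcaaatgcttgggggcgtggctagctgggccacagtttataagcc
Oas1a: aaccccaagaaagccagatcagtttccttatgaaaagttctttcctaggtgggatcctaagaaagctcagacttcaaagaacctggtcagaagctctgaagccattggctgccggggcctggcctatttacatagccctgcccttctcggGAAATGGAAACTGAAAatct
Gbp2: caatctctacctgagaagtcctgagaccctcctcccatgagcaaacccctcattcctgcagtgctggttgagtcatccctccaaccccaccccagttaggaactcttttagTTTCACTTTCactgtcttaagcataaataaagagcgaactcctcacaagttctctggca
Bst2: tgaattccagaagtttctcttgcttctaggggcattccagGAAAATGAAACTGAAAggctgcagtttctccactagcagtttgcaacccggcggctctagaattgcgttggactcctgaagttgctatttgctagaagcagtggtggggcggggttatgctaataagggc

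Irf1 (chr11:53769844-53770013, plus strand) had no ISRE core but a GAS core, marked in capitals in its 170 bases. In Ifih1 (chr2:62646206-62646235, minus strand) the ISRE core lay just after the gene start, and 30 bases around it are shown.
Irf1: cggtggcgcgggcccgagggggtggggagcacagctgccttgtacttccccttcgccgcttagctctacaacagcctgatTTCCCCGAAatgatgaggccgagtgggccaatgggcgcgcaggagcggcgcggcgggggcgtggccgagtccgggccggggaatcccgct
Ifih1: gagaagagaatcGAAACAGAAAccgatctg

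The 13 genes with an ISRE core had a median log2 fold change, BKO over Cre, of 0.17, against 0.13 in the 9 genes whose window lacked it. Their biological coefficient of variation, the spread between libraries beyond counting noise, had a median of 26.6% in genes with the core and 24.6% in genes without it. No test was made between them.

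**Figure D1:**
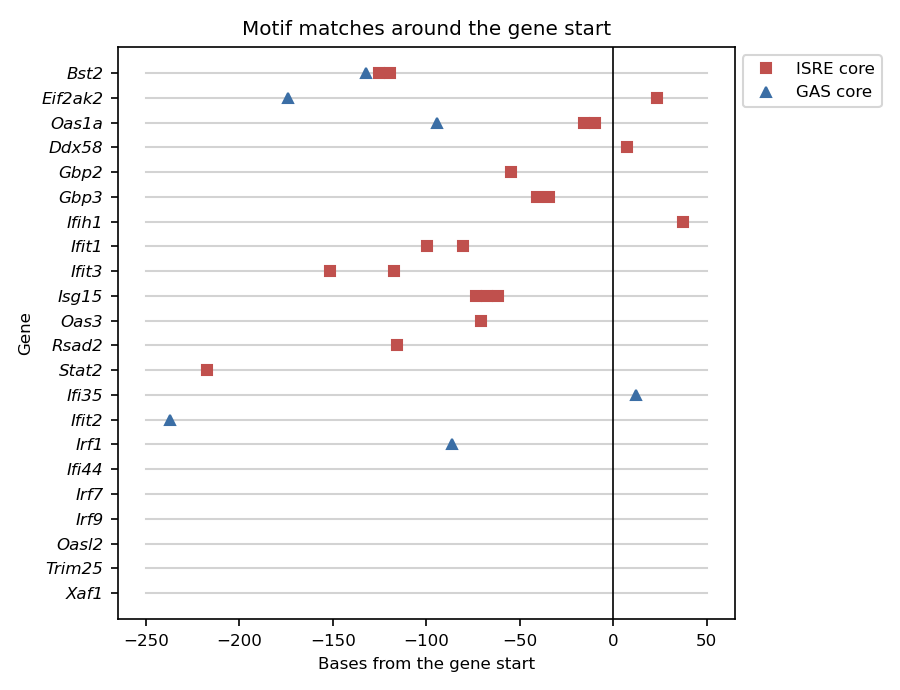
Positions of ISRE cores (squares) and GAS cores (triangles) in the promoter windows of 22 interferon-stimulated genes, in bases from the gene start (vertical line); each row is a gene and the grey line its window. ISRE cores were found in 13 genes and GAS cores in 6, most of them before the start.

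Each BKO library held between 10356093 and 11902217 reads assigned to genes, and each Cre library between 11444273 and 12397139. The summary lines of the counting program (reads with no gene, ambiguous, of low quality, not aligned or not unique) held 35.5% to 39.0% of reads in BKO and 34.7% to 45.8% in Cre, with the highest share in Cre-1. The tissue label was met by its β-cell markers: all 10 were detected, and their summed level ran from 97991 to 156260 CPM (reads scaled to the library's total, adjusted by edgeR's TMM factors) in BKO and from 121160 to 152440 CPM in Cre. Of these markers 1 had a positive fold change, where 52.8% of all genes tested did, and their median log2 fold change was -0.20. At an unadjusted p under 0.05 by edgeR, 3 of them were lower in BKO, where 4.66% of all genes were. Il22ra1, the targeted gene, had 1 to 3 reads in each BKO library and 1 to 5 in each Cre library, so a loss was not detectable at this depth in whole islets. Nothing in the labels says that each library is a separate animal, so the tests measure the spread between these libraries, which may be partly technical.

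None of the 29 interferon-stimulated genes passed the test of a difference between BKO and Cre islets. Of the 29 genes, 0 passed in either direction at an adjusted p under 0.05 with edgeR's quasi-likelihood test and Benjamini-Hochberg adjustment, where 0.0% of all 13583 genes tested were called in each direction. At an unadjusted p under 0.05, 1 gene was higher, Ifih1, and 0 were lower, where 8.7% of all genes were higher and 4.66% lower. DESeq2 called 0 of the 29 and 1.64% of all genes, limma-voom 0 of the 29 and 0.0% of all genes, and edgeR with a block for the replicate number 0 of the 29 and 2.68% of all genes. With single libraries left out 0 of the 29 were called, where 0.0366% of all genes were without BKO-3, 1.92% without BKO-4, 0.0439% without Cre-1, 0.807% without Cre-5 and 0.0% without each of the other 8. The genotypes overlapped in all 29 genes, while in 0.508% of all genes they did not. The fold changes leaned upward: 25 of 29 were positive, where 52.8% of all genes were, and the median log2 fold change was 0.13, against 0.0078 for all genes. That median changed in size when single libraries were left out. It was 0.030 without BKO-2, 0.056 without BKO-5, 0.073 without Cre-5, 0.042 without Cre-6 and 0.21 without Cre-1, and positive genes numbered 16 without BKO-2, 17 without BKO-5, 19 without Cre-5, 18 without Cre-6 and 26 without Cre-1. In bulk tissue, fewer cells of a type and less RNA per cell cannot be told apart.

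**Figure D2:**
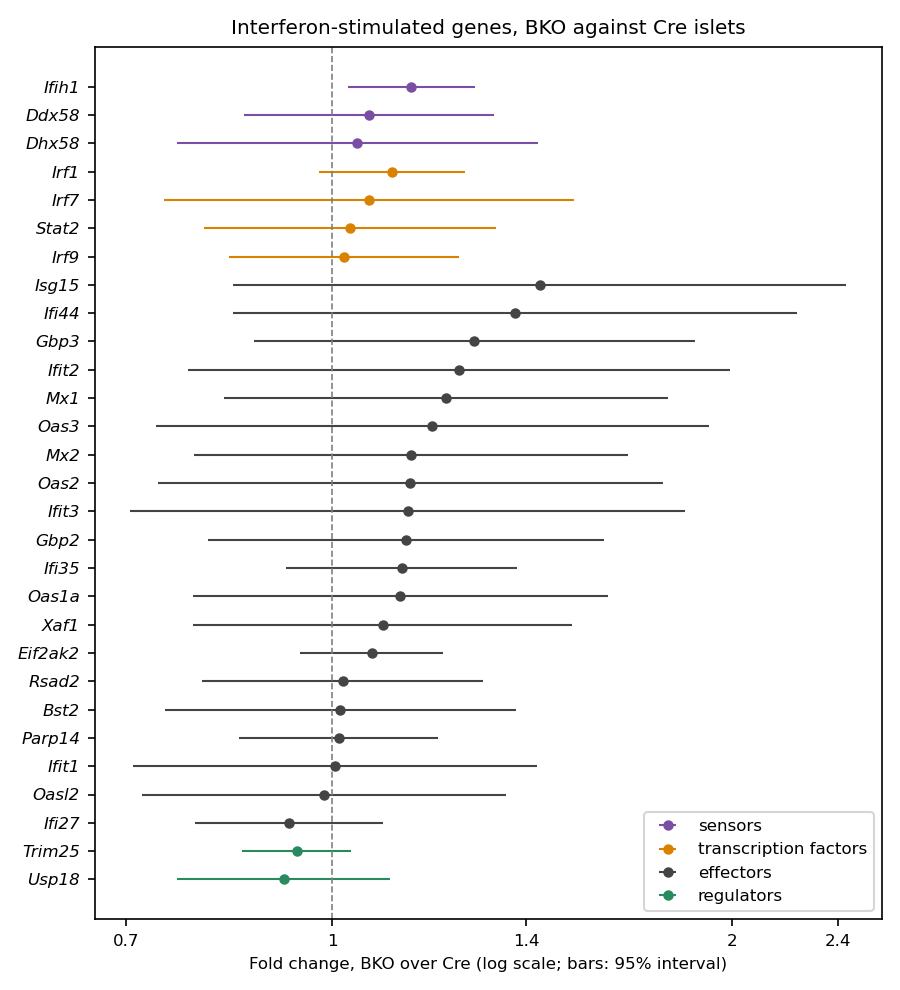
Fold change of each interferon-stimulated gene, BKO over Cre (log axis), with its 95% interval from the edgeR fit; genes are grouped and coloured by role and the dashed line marks no difference. The interval includes 1 in 28 of the 29 genes, and Ifih1 is the exception.

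The sensors of foreign RNA were the first group. Ifih1 encodes MDA5, a cytoplasmic helicase that detects long double-stranded RNA (chromosome 2, 62595798 to 62646255, minus strand, mm10). Its lowest, median and highest levels were 60.1, 72.3 and 80.7 CPM in BKO libraries and 55.6, 61.7 and 71.0 CPM in Cre libraries. Most BKO libraries lay above most Cre libraries, 5 of 6 above the Cre mean, but the ranges overlapped. The means were 71.8 ± 7.92 CPM in BKO islets and 62.6 ± 5.60 CPM in Cre (SD, n = 6 each), and the log2 fold change was 0.20 ± 0.076 (SE). The adjusted p of edgeR was 0.269, between 0.126 and 0.547 over the other fits, and the exact two-sided permutation p was 0.0541. Ddx58, which encodes RIG-I, the sensor of RNA with an uncapped end, ran from 91.1 through a median of 120.5 to 143 CPM in BKO islets and from 88.0 through 109 to 158 CPM in Cre. Its groups overlapped almost fully (log2 fold change 0.092 ± 0.14, adjusted p = 0.853 by edgeR). Dhx58, the related helicase LGP2 that regulates the other sensors, averaged 35.2 ± 8.97 CPM in BKO islets and 33.7 ± 9.16 CPM in Cre (SD, n = 6 each).

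None of the transcription factors that carry the signal passed the test, and the ranges of the genotypes overlapped in each. Irf7, the factor that amplifies the type I interferon response, had the highest mean CPM of the 29, a scale not adjusted for gene length, at 99.3, 166 and 233 CPM (lowest, median and highest) in BKO and 115, 165 and 186 CPM in Cre. Both the highest and the lowest of its 12 values were in BKO libraries, BKO-5 and BKO-6, and the fold was 1.07 with a 95% interval of 0.748 to 1.52. Irf1, which responds to interferon gamma among other signals, averaged 104 ± 9.62 CPM in BKO islets and 93.6 ± 13.8 CPM in Cre (SD, n = 6 each), with 5 of 6 BKO libraries above the Cre mean. Its log2 fold change was 0.15 ± 0.086 (SE), and it did not pass (adjusted p = 0.496 by edgeR). Stat2 averaged 102 ± 23.6 CPM in BKO islets and 98.8 ± 20.1 CPM in Cre (SD, n = 6 each). Its partner Irf9 averaged 78.3 ± 13.9 CPM in BKO islets and 76.7 ± 13.9 CPM in Cre. Exons of Irf7 overlap Phrf1 and those of Irf1 overlap Gm17334, each on the opposite strand, and exons of Irf9 overlap Rnf31 on the same strand, by at most 135 bases in each case. Exons of Ifi35, Dhx58, Usp18, Eif2ak2 and Gbp2 also overlap a gene on the opposite strand, and those of Parp14 one on the same strand. The sources used here do not give the strand setting, so reads of these stretches cannot be assigned with certainty.

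The 20 effector genes, whose products act on viral RNA, proteins or membranes, held the largest fold changes and the widest spread. Isg15, a ubiquitin-like protein that is attached to other proteins, had the largest fold of the 29. Its lowest, median and highest levels were 13.1, 20.2 and 40.8 CPM in BKO islets and 11.2, 15.6 and 29.9 CPM in Cre. BKO-2 and BKO-5, at 40.8 and 40.0 CPM, stood above all other libraries, while the other 4 BKO libraries lay within the Cre range. The fold was 1.43 with a 95% interval of 0.843 to 2.44 (adjusted p = 0.585 by edgeR). Ifi44 followed at a fold of 1.37 (0.843 to 2.24), with means of 15.9 ± 6.07 CPM in BKO islets and 11.6 ± 5.44 CPM in Cre (SD, n = 6 each). Gbp3, a guanylate-binding GTPase, had a fold of 1.28 (0.874 to 1.87), Ifit2 one of 1.25 (0.779 to 1.99), and the GTPase Mx1 one of 1.22 (0.830 to 1.79). The intervals of Isg15 and Ifi44 reached above a 2-fold difference, so these libraries do not show that the genotypes act alike.

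Among effectors with many reads, Ifit1, Rsad2, Oasl2 and Parp14 had folds between 0.987 and 1.02, and Ifit3 had one of 1.14. Ifit1 and Ifit3 encode proteins that bind foreign RNA and lie in a cluster on chromosome 19. Ifit1 was at 83.3, 113 and 145 CPM (lowest, median and highest) in BKO and 73.5, 115 and 186 CPM in Cre, with both extremes in Cre libraries. Its fold was 1.005, with a 95% interval of 0.709 to 1.42. Ifit3 was at 70.8, 122 and 158 CPM in BKO islets and 57.6, 102 and 177 CPM in Cre, again with the BKO range inside the Cre range. Rsad2, or viperin, which makes a chain-terminating nucleotide, was at 94.8, 118 and 144 CPM in BKO islets and 78.0, 128 and 143 CPM in Cre. The ranges of Rsad2 overlapped over most of their length. Oasl2, a relative of the oligoadenylate synthetases, was at 93.6, 117 and 177 CPM in BKO islets and 98.2, 128 and 194 CPM in Cre. Parp14, an ADP-ribosyltransferase, was at 120.4, 133 and 189 CPM in BKO islets and 119.8, 142 and 176 CPM in Cre. In each of these 5 the genotypes overlapped. The Cre range was the wider one in Ifit1, Ifit3, Rsad2 and Oasl2, and the BKO range in Parp14. The adjusted p of edgeR was between 0.865 and 0.996 in the 5.

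The oligoadenylate synthetases make the second messenger that activates RNase L. Oas1a averaged 26.9 ± 8.63 CPM in BKO islets and 24.0 ± 6.63 CPM in Cre (SD, n = 6 each), with a fold of 1.13. Oas2 averaged 36.9 ± 12.5 CPM in BKO islets and 32.2 ± 11.5 CPM in Cre, a fold of 1.15. Oas3 averaged 5.49 ± 2.13 CPM in BKO islets and 4.62 ± 2.18 CPM in Cre, a fold of 1.19. These 3 genes lie together on chromosome 5, and all differed by less than the spread between libraries. Mx2 had a fold of 1.15, Gbp2 of 1.14, Ifi35 of 1.13, Xaf1, which binds an inhibitor of apoptosis, of 1.09, and the RNA-activated kinase Eif2ak2 of 1.07. Bst2, the membrane tether tetherin, had a fold of 1.01 with means of 88.9 ± 26.4 CPM in BKO islets and 87.6 ± 14.4 CPM in Cre. Ifi27 was one of 4 genes with a fold under 1, at 0.928 (102 ± 14.4 CPM in BKO islets and 110.4 ± 17.1 CPM in Cre; SD, n = 6 each). None of these passed the test. Some of these genes have near-identical neighbours: 57.6% of the 50-base windows of the Oas1a transcript are also found in Oas1g, and 51.2% of those of Ifit3 in Ifit3b, so the split of reads within these pairs is uncertain. The next highest share was 7.13%, in Ifit1. Many laboratory mouse strains carry a defective Mx1 allele.

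Both regulators of the response had folds under 1. Usp18, a protease that removes Isg15 from proteins and dampens signalling at the type I receptor, averaged 93.2 ± 12.8 CPM in BKO islets and 101 ± 19.4 CPM in Cre (SD, n = 6 each), with a fold of 0.919 (0.765 to 1.10). Trim25, a ubiquitin ligase of the RIG-I pathway, was at 103.9, 116 and 142 CPM (lowest, median and highest) in BKO and 121, 128 and 134 CPM in Cre. Only BKO-2 lay above the Cre mean, with BKO-4 almost at it, and the Cre libraries were closely grouped within the wider BKO range. Its log2 fold change was -0.088 ± 0.065 (SE), and neither gene passed (adjusted p = 0.745 for Usp18 and 0.615 for Trim25 by edgeR).

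**Figure D3:**
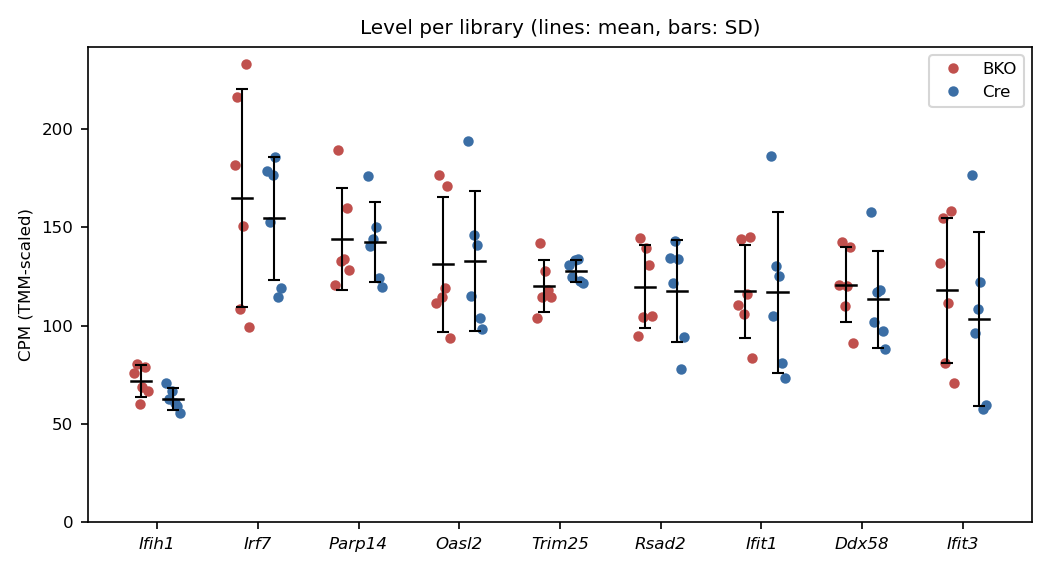
CPM per library of Ifih1 and the 8 interferon-stimulated genes with the highest mean CPM, BKO left of Cre; points are libraries, short lines means and bars SD (n = 6 each). The genotypes overlap in every gene shown, and the ranges are widest in Irf7, Ifit1, Ifit3 and Oasl2.

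Per kilobase of exon, Bst2 stood highest at 97.7 CPM per kilobase (98.4 in BKO and 97.1 in Cre), followed by Ifi27 at 72.5, Ifit3 at 63.5, Ifit1 at 44.1 and Irf7 at 42.3. Usp18 at 34.9 and Isg15 at 27.9 came next, and 12 of the 29 were above 20 CPM per kilobase. The least abundant were Mx2 at 2.69, Mx1 at 2.62, Ifi44 at 2.24 and Oas3 at 0.716. Every gene had at least 26 reads in every library, so none of these levels was limited by counts near 0. The level of Ifit3 carries the uncertainty of its near-identical neighbour. The length counts all annotated exons of a gene merged, so levels per kilobase may be understated where transcripts differ. In Irf7 the merged exons formed 1 block of 3776 bases that spans the whole gene.

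Most of these genes varied more between libraries of one genotype than the median gene did, and they were often high or low in the same libraries. The highest over the lowest library ranged from 1.24 in Eif2ak2 to 3.18 in Oas3 within BKO, with a median of 1.82. Within Cre it ranged from 1.10 in Trim25 to 3.74 in Oas3, with a median of 1.97. The biological coefficient of variation was above the median of all genes tested (10.2%) in 27 of the 29, with a median of 24.6%; Trim25 (8.87%) and Ifih1 (9.65%) were the others.

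BKO-2 was the highest BKO library in 19 of the 29 genes, against 14.3% of all genes tested, and among the top 2 in 28, against 31.1%. BKO-5 was among the top 2 in 23 genes, against 36.5% of all genes. BKO-6 was the lowest in 19 genes, against 12.8% of all genes, and among the lowest 2 in 27, against 29.7%. Among Cre libraries, Cre-1 was the highest in 26 of the 29 genes, against 25.6% of all genes, and the exceptions were Irf7, Rsad2 and Trim25. Cre-6 was the lowest in 20 genes, against 17.5% of all genes, and among the lowest 2 in all 29, against 33.8%. Single genes departed from this: on the log2 scale Ifi27 in BKO-2 lay at -0.10 and Mx1 in BKO-5 at -0.28 from their BKO means, and Trim25 in Cre-1 at 0.036 from its Cre mean (examples picked with their values in view).

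**Figure D4:**
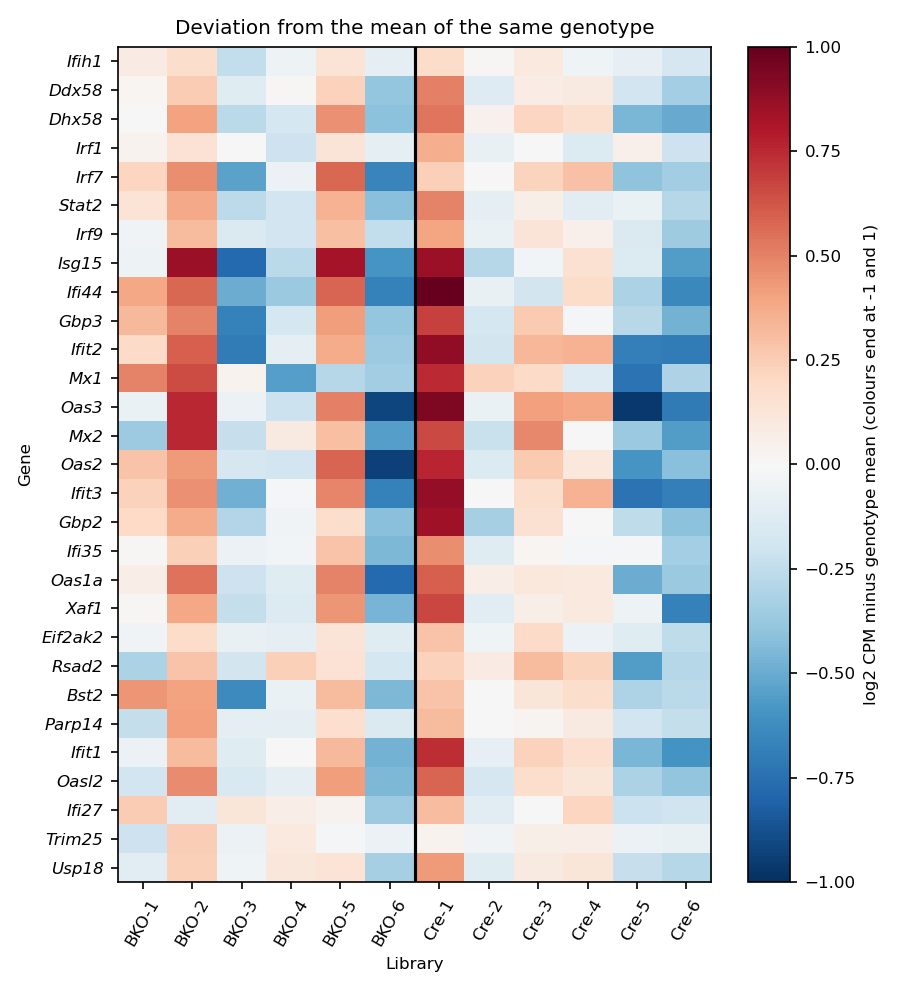
log2 CPM of each interferon-stimulated gene in each library minus the mean of its own genotype; red is above and blue below that mean, with colours ending at -1 and 1. BKO-2, BKO-5 and Cre-1 are red, and BKO-6, Cre-5 and Cre-6 blue, in most genes.

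As a median over the 29 genes, the log2 difference from the Cre mean was 0.45 in BKO-2, 0.40 in BKO-5, 0.19 in BKO-1, 0.010 in BKO-4, -0.091 in BKO-3 and -0.29 in BKO-6. In Cre libraries it was 0.53 in Cre-1, 0.13 in Cre-3, 0.10 in Cre-4, -0.073 in Cre-2, -0.28 in Cre-5 and -0.36 in Cre-6. The BKO range lay inside the Cre range, and the same median over all genes tested stayed between -0.0031 and 0.030. A separate list of 47 other interferon-stimulated genes placed the libraries in a like way. BKO-2 was the highest BKO library in 28 of the 47, Cre-1 the highest Cre library in 39, BKO-6 the lowest in 21 and Cre-6 the lowest in 26. Both lists were measured in the same libraries and are not independent of each other.

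**Figure D5:**
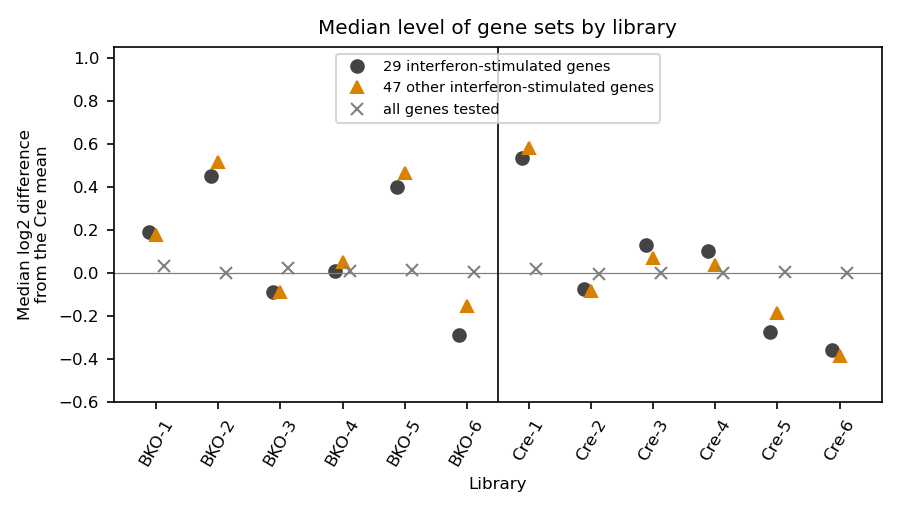
Median log2 difference from the Cre mean, per library, for the 29 interferon-stimulated genes (circles), 47 other interferon-stimulated genes (triangles) and all genes tested (crosses); the vertical line separates BKO from Cre. Cre-1 is highest at 0.53 and Cre-6 lowest at -0.36 for the 29 genes, while all genes tested stay near 0.

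Other cell types also differed between these libraries. For the counts below, 52.8% of all genes tested had a positive fold change. At an unadjusted p under 0.05 by edgeR, 8.7% of all genes were higher in BKO and 4.66% lower. The summed level of 10 endothelial markers ran from 579 to 825 CPM in BKO islets and from 454 to 652 CPM in Cre; all 10 had positive fold changes, each with an unadjusted p under 0.05, and 0 passed over all genes. The endothelial sum was highest in BKO-5 (825 CPM) and BKO-2 (790.1 CPM) among BKO libraries. In Cre it was highest in Cre-5 (652 CPM), where the interferon-stimulated genes were second lowest, and was 573 CPM in Cre-1. The 10 macrophage markers summed to between 116 and 152 CPM in BKO islets and between 130.1 and 177 CPM in Cre, at 132 CPM in BKO-2, 116 CPM in BKO-5 and 142 CPM in Cre-1. Of their 9 tested genes 1 was positive and 2 were lower at an unadjusted p under 0.05. The 10 mesenchymal markers summed to between 60.7 and 104.9 CPM in BKO islets and between 39.6 and 92.4 CPM in Cre, with 9 of 10 positive and 6 higher at an unadjusted p under 0.05. Acinar markers ran from 1514 to 5437 CPM in BKO islets and from 246 to 6913 CPM in Cre, and were at 3885 CPM in BKO-2, 5437 CPM in BKO-5 and 2449 CPM in Cre-1. Duct markers ran from 1636 to 2807 CPM in BKO islets and from 1925 to 2499 CPM in Cre, and α-cell markers from 12458 to 25301 CPM in BKO islets and from 9190 to 14516 CPM in Cre. At an unadjusted p under 0.05, 4 of 8 duct markers and 6 of 6 α-cell markers were higher, while 0 of 11 tested acinar markers were. All 11 acinar markers had positive fold changes, with a median log2 fold change of 0.55. Lymphoid cells were near the floor of 3 reads: Cd3e, Cd3g, Nkg7 and Klrb1c of the T and NK cell list, Ms4a1 and Pax5 of the B cell list, and Siglech of plasmacytoid dendritic cells had at most 3 reads in every library. The T and NK cell list summed to between 3.57 and 5.49 CPM in BKO islets and between 2.48 and 4.12 CPM in Cre, and the B cell list to at most 3.78 CPM in BKO and 3.07 CPM in Cre. The other 4 plasmacytoid dendritic cell genes are made by other cells too, and that list summed to between 68.6 and 83.3 CPM in BKO islets and between 56.9 and 74.6 CPM in Cre, with 2 of its 3 tested genes higher at an unadjusted p under 0.05. The part of these cell types in the levels of interferon-stimulated genes was not tested.

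Upstream of these genes, the interferons themselves were at or under the floor. None of 11 interferon genes had more than 3 reads in any library, and 6 of them, Ifna1, Ifna4, Ifna5, Ifne, Ifng and Ifnl2, had 0 reads in all 12. Ifnb1, the interferon beta gene, had 3 reads summed over BKO and 4 over Cre. A difference in ligand was not detectable at this depth. The receptors were present in both genotypes. The type I receptor chain Ifnar1 averaged 52.5 ± 2.16 CPM in BKO islets and 51.4 ± 2.89 CPM in Cre (SD, n = 6 each). Its partner Ifnar2 averaged 37.3 ± 2.20 CPM in BKO islets and 37.8 ± 1.86 CPM in Cre. Of 9 receptor and kinase genes 0 passed in either direction, and 3 were higher and 0 lower at an unadjusted p under 0.05, where 8.7% of all genes were higher and 4.66% lower. These were the kinase Jak2 (fold interval 1.04 to 1.26), the gamma receptor chain Ifngr1 (1.03 to 1.33) and Il10rb (1.03 to 1.31), the chain shared by the lambda and interleukin-22 receptors. Il10rb averaged 21.8 ± 2.06 CPM in BKO islets and 18.7 ± 1.73 CPM in Cre (SD, n = 6 each; adjusted p = 0.259 by edgeR). Its partner Ifnlr1 was low, at 2.95 ± 0.599 CPM in BKO islets and 2.67 ± 0.584 CPM in Cre.

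Of 5 other transcription factors tested, 0 passed and 0 had an unadjusted p under 0.05. The 3 with the smallest p were Irf5, Irf3 and Irf8, with log2 fold changes of 0.27, 0.064 and 0.067. Of 10 other sensors and adaptors tested, 0 passed with edgeR. Tmem173, which encodes STING, the adaptor of cytosolic DNA sensing, had the smallest p of all these lists. It was at 5.49, 7.56 and 11.8 CPM (lowest, median and highest) in BKO and 3.10, 4.18 and 7.16 CPM in Cre, and the ranges overlapped. Its log2 fold change was 0.83 ± 0.23 (SE), with an adjusted p of 0.156 by edgeR. It was called by DESeq2 (adjusted p = 0.035) and by edgeR without BKO-4 (0.0422), without Cre-5 (0.040) and with a block for the replicate number (0.0168), out of a range of 0.0168 to 0.376 over all fits. Ikbke and Myd88 followed, at log2 fold changes of 0.20 and 0.090.

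Of 8 inhibitors of the pathway 0 passed, while 3 were higher and 1 lower at an unadjusted p under 0.05, against 8.7% and 4.66% of all genes in those directions. Samhd1, an enzyme that breaks down deoxynucleotides, averaged 35.0 ± 4.02 CPM in BKO islets and 29.2 ± 1.99 CPM in Cre (SD, n = 6 each, adjusted p = 0.169 by edgeR). The phosphatase Ptpn2 averaged 57.0 ± 3.20 CPM in BKO islets and 48.6 ± 6.21 CPM in Cre (adjusted p = 0.206 by edgeR). Socs3, a feedback inhibitor of cytokine receptors, averaged 93.9 ± 25.2 CPM in BKO islets and 65.4 ± 13.8 CPM in Cre (adjusted p = 0.279 by edgeR). The phosphatase Ptpn6, the one with a lower level, was chosen after its value was seen and had a fold interval of 0.825 to 0.986. Of the 47 other interferon-stimulated genes tested, 0 passed with edgeR and 38 were positive, where 52.8% of all genes were. Their median log2 fold change was 0.12, against 0.0078 for all genes. At an unadjusted p under 0.05, 3 were higher and 0 lower, against 8.7% and 4.66% of all genes. The 3 with the smallest p were Ifitm2 and Ifitm3, membrane proteins that block virus entry, and Ifi27l2a. Ifitm2 was at 23.8, 33.6 and 44.3 CPM (lowest, median and highest) in BKO islets and 18.2, 22.4 and 31.7 CPM in Cre, with overlapping ranges. Ifitm3 averaged 78.6 ± 35.4 CPM in BKO islets and 46.6 ± 15.6 CPM in Cre (SD, n = 6 each). Ifitm2 had an adjusted p of 0.197 by edgeR, and was called by DESeq2 (0.0453) and by edgeR with a block for the replicate number (0.0152), out of 0.0152 to 0.417 over all fits. Of the marker sums described above, those of endothelial, mesenchymal, α, acinar and duct cells had higher medians in BKO islets. So did those of the plasmacytoid dendritic, T and NK, and B cell lists, while those of β cells and macrophages had lower medians. The part of these cell types in these genes was not tested.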

How the data were processed

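Total RNA of islets was made into paired-end libraries for a NovaSeq sequencer, per the labels' protocols. The submitters' processing notes name HISAT2 2.0.5, HTSeq and mm10; HTSeq's version, strand setting and annotation are not stated in the sources used here. The values deposited by the authors are unnormalised read counts for 24421 gene symbols, with 5 summary lines, which entered neither library sizes nor tests. Library totals and summary-line shares are given in the report. A series-wide CPM table was not used. Libraries of one genotype differed by more than sampling noise (chi-square over its degrees of freedom 5.08 to 30.05).

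The test was edgeR 4.0.16 (R 4.3.3) with filterByExpr, TMM scaling, a robust glmQLFit, glmQLFTest and p-values adjusted by Benjamini-Hochberg over all 13583 genes (threshold 0.05), on 6 against 6 libraries. CPM uses TMM-scaled library sizes, SE comes from the test, and 95% intervals from its degrees of freedom. Exact permutation tests use all 924 splits (smallest p 0.00216). The floor is 3 reads, for counting error only. The script was tested on simulated data. Alternatives were other scalings, filters, DESeq2 1.42.0, limma-voom (limma 3.58.1), no robust shrinkage, a replicate block, an adjusted p of 0.1 and each library left out. The limma-voom fit used quality weights, which give more variable libraries less weight.

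Coordinates and exon lengths come from GENCODE M21 (GRCm38, which is mm10), promoters from RefSeq. The rule for the genes uses names alone, but they and the lists were chosen with earlier results of these data known, so no test was made over a list. Every gene of the group is named; full ranges are given for those with an unadjusted p under 0.05 and for the 8 with the highest mean CPM, and per pathway list up to 3 genes with the smallest p are named. Values beyond that rule were added for further genes, chosen after they were seen. Some list members are not reported here.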

Additional observations from a re-analysis of the deposited data

Results flagged for a closer look

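In 60 groups of 6 libraries checked, the 29 genes in each genotype and their median level, 3 single values stood apart by the gap to their nearest neighbour, and chance flags about 1 in 20 groups. All 3 came from Cre-1. Ifi44 was at 22.1 CPM there, against 6.87 to 12.2 CPM in the other 5 Cre libraries. Gbp2 was at 76.1 CPM, against 31.9 to 47.0 CPM in the others. Stat2 was at 137 CPM, against 79.7 to 101 CPM. Cre-1 also had the highest share of reads in the summary lines, 45.8%.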

How the results depend on the processing

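Over 20 further fits, 12 of them leaving out 1 library and 8 changing another setting, 0 of the 29 genes passed; the lowest adjusted p of any was 0.126. Genes past the test among all genes were 0 with edgeR but 223 with DESeq2, 364 with the replicate block and between 0 and 262 with 1 library left out (5 without BKO-3, 262 without BKO-4, 6 without Cre-1, 110 without Cre-5). Pathway genes past the test were 2 with DESeq2, 2 with the replicate block, and between 0 and 1 with 1 library left out (1 each without BKO-4 and without Cre-5, both times Tmem173). The block is not a paired design of the labels: same-numbered libraries correlated between -0.0725 and 0.264, and 4 of 6 BKO libraries correlated best with their own number. An adjusted p of 0.1 called 0 genes. The median log2 fold change of the 29 stayed positive in all fits, between 0.11 and 0.14 under other settings and between 0.030 and 0.21 with 1 library left out. With 1 mismatch allowed, 21 of 22 genes held the ISRE core, against 38.88% of all genes.

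Of the 29 genes 19 kept their direction in all fits, and 10 did not, none of them with a log2 fold change above 0.20. Sign changes outside left-out libraries were Ifit1 with RLE (-0.0020), no filter (-0.0064) and DESeq2 (-0.0023), Oasl2 (0.0084), Irf7 (-0.0055) and Irf8 (-0.047) with limma-voom, and Bst2 with limma-voom (-0.051) and the replicate block (-0.015). With 1 library left out, log2 fold changes ranged from -0.10 to 0.17 (Ifit1), -0.067 to 0.079 (Rsad2), -0.14 to 0.10 (Oasl2), -0.0060 to 0.33 (Mx2), -0.076 to 0.13 (Bst2), -0.092 to 0.068 (Parp14), -0.044 to 0.19 (Irf7), -0.053 to 0.10 (Irf9), -0.050 to 0.15 (Stat2) and -0.049 to 0.16 (Dhx58). Irf3 and Irf8, pathway genes outside the 29, also changed sign. They ranged from -0.0038 to 0.11 (Irf3) and from -0.052 to 0.19 (Irf8) with 1 library left out, and Irf8 was at -0.047 with limma-voom. The cause was not tested. Il22ra1 and the interferon genes had too few reads for a difference to be seen. Whether low depth or absent expression lay behind this was not tested.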
